A study of Mus musculus with 18 samples.

Results

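The Dlk1-Meg3 imprinted locus of mouse chromosome 12 was examined in RNA collected from Neuro2A cells, a line derived from a mouse neuroblastoma. Its members were the loci of the deposited expression table whose gene symbols include *Dlk1*, *Meg3*, *Rian*, *Mirg* or *Rtl1*. These 5 symbols gave 6 loci of 52179 with a symbol, because *Rian* is listed for 2 loci. All cells were wild type. They were transfected with a biotinylated *miR-92b* mimic or a biotinylated scrambled sequence (Scr), both at 25 nM, or were untransfected (control), and each was studied as nuclear and as whole cell lysate. RNA held by the mimic was pulled down from the lysates. Whether control lysates also passed over the beads is not given in the sources used here, so values against control may compare a pulldown with input RNA or with bead background. RNA was selected for poly(A) tails with oligo-dT beads and sequenced as directional libraries. This gave 6 groups of 3 samples. No label states that the samples of a group came from separate cultures, so p-values measure the spread between these samples, which may be technical. One cell line at 1 time after transfection was studied.

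Imprinted genes are transcribed mainly from 1 parental chromosome. At this locus, the protein-coding genes *Dlk1* and *Rtl1* are active on the paternal chromosome and the noncoding RNAs *Meg3*, *Rian* and *Mirg* on the maternal chromosome, under the control of a differentially methylated region between *Dlk1* and *Meg3*. *Dlk1* encodes a membrane protein related to the Notch ligands and *Rtl1* a protein derived from a retrotransposon. *Meg3* is a long noncoding RNA found largely in the nucleus, *Rian* is a host of C/D box snoRNAs, and *Mirg* is a host of many miRNAs.

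In the files, the loci lie between positions 109452823 and 109749460 of chromosome 12 of the mouse genome GRCm38 (mm10). The GENCODE M21 annotation of that build places *Dlk1* on the plus strand at chr12:109452823-109463336, *Meg3* on the plus strand at chr12:109541001-109571726, *Rtl1* on the minus strand at chr12:109589193-109600330, *Rian* on the plus strand at chr12:109603940-109661716 and *Mirg* on the plus strand at chr12:109729764-109749460. The files list the same coordinates for *Rian* and *Rtl1*, chr12:109589194-109661944, while their values are separate. Only the *Dlk1* locus and the second *Rian* locus carry a single symbol. The *Meg3* locus joins 4 symbols, the main *Rian* locus 6, the *Rtl1* locus 2 and the *Mirg* locus 10, and such a value cannot be split between its genes. *Rtl1* lies on the strand opposite to *Rian*, and whether strand was used in counting is not given in the sources used here, so reads of overlapping antisense transcripts may be held in either value.

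The mimic and its possible pairing with the members are shown by sequence because the seed, bases 2 to 8 of a miRNA, is the stretch that pairs with target RNAs. The sequence of mouse *miR-92b-3p* was taken from RefSeq (GRCm38.p6), where it lies on the minus strand at chr3:89227126-89227147. The study uses *miR-92b* as its short name for the 3p arm, so this arm is printed for the mimic. The seed is in capitals.
miR-92b-3p: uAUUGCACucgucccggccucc

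The complement of this seed, GTGCAAT in the sense strand of the transcripts, was searched for in GENCODE M21. It was absent from the 10 annotated transcripts of *Dlk1*, the 11 of *Meg3*, the 12 of *Mirg* and the single transcript of *Rtl1*. Of the 20 *Rian* transcripts, 1 held it, at 2 positions. Both lie in exonic sequence of Rian-209, which has 3476 bases, at chr12:109634359-109634365 and chr12:109635024-109635030 on the plus strand. Windows of 29 bases around them follow, with the match in capitals. The second match is followed by an a, the base that extends a 7-base to an 8-base site.
Rian site 1: ccatcaggtgtGTGCAATcttgtgtaacc
Rian site 2: cacattgatttGTGCAATaggtagtgcaa

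Over all 141767 annotated transcripts, 5.70% held the match. Among transcripts within 10% of the length of the longest *Dlk1* transcript (4653 bases) the share was 16.9%, for *Meg3* (14548 bases) 44.1%, for *Rian* (8089 bases) 30.6%, for *Mirg* (3822 bases) 12.8% and for *Rtl1* (6358 bases) 25.0%. The longest *Rian* transcript held no match, and no share was computed for transcripts near the length of Rian-209. A match is a stretch of letters and not a measured binding site.

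The noncoding members also carry miRNA genes, which is why their mature sequences are given. The loci of *Meg3*, *Rtl1* and *Mirg* include 12 miRNA symbols, all matched to RefSeq (GRCm38.p6), with 22 mature miRNAs and 22 different seeds. Those of the *Meg3* and *Rtl1* loci are printed below, with *miR-134-5p* of the *Mirg* locus and the pair formed by *miR-410-5p* of the *Mirg* locus and *miR-494-5p* of the same region, which share a seed. Seeds are in capitals.
miR-1906 (Meg3 locus): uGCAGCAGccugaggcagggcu
miR-770-5p (Meg3 locus): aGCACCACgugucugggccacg
miR-770-3p (Meg3 locus): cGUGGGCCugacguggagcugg
miR-3071-5p (Rtl1 locus): aCUCAUUUgagacgaugaugga
miR-3071-3p (Rtl1 locus): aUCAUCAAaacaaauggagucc
miR-134-5p (Mirg locus): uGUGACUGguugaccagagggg
miR-410-5p (Mirg locus): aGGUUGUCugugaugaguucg
miR-494-5p (miRNA cluster): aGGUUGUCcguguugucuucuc

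RefSeq places 57 hairpins with 112 mature miRNA entries, of 111 different names, between *Dlk1* and the end of *Mirg*. They hold 102 different seeds, of which 9 are shared by 2 differently named miRNAs each, and none of the 112 entries has the seed of *miR-92b-3p*. Levels of these miRNAs were not measured apart from their host loci. The region had 48 further loci of miRNA genes, and all of them were listed at 0 in the 18 samples.

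The unit used below is the normalized count, the reads of a locus after scaling each library by its size factor. Libraries held from 3752991 to 22920038 reads at named loci, a range of 6.11 times, with a median of 4301579 in nuclear and 6634894 in whole cell samples. The locus took a small part of each library, between 0.00119% and 0.00728% of the reads. Compartments were as labelled: *Malat1* (log2 fold change 1.08 ± 0.16 (SE)) and *Neat1* (1.06 ± 0.14), both retained in the nucleus, rose in nuclear samples, and *Eef2* (-2.90 ± 0.20) and *Gapdh* (-2.35 ± 0.20), which are translated in the cytoplasm, fell. Of 14 markers of neuroblastoma and sympathetic cells, 12 were in tested loci, including *Phox2a* and *Dbh*, while *Tubb3* had no reads under its symbol. Their summed normalized count ranged from 6696 to 7812 in nuclear and from 6494 to 8027 in whole cell samples. The summed level of 4 fibroblast markers was 0 to 37.8 in nuclear and 0 to 30.6 in whole cell samples, that of 4 immune markers 0 to 8.07 and 0 to 0.786, that of 3 endothelial markers 1.26 to 54.1 and 0 to 77.4, that of 4 astroglial markers 30.3 to 61.7 and 0 to 75.7, and that of 4 oligodendroglial markers 42.6 to 158 and 85.0 to 239. *Cd3e*, *Kdr* and *Olig1* were at 0 in every sample.

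*Dlk1*, the coding member with most reads, was lower in nuclear than in whole cell samples. On the log2 scale, over the mean of the 3 treatments, the noncoding RNAs pointed the other way. *Meg3* in control (-1.08) and *Mirg* in Scr (-0.38) did not. The median normalized count of *Meg3* was also higher in whole cell (62.8) than in nuclear samples (49.75). *Meg3* and *Rian* missed the threshold in the main test, and *Mirg* was below its filter. Normalized counts of *Dlk1* were 11.6, 39.0 and 19 in nuclear control samples 1 to 3, 24.4, 0 and 1.26 with nuclear Scr, and 13.7, 11.8 and 15.4 with nuclear *miR-92b*. In whole cell samples they were 155, 32.0 and 126 in control, 0, 78.0 and 98.7 with Scr, and 59.4, 64.3 and 280 with *miR-92b*. Whole cell Scr 1 and nuclear Scr 2 had no *Dlk1* read, and whole cell control 2 lay below nuclear control 2, so the compartments overlapped. The other 7 whole cell samples lay above every nuclear sample. The mean was 15.1 ± 11.8 (SD, n = 9) in nuclear and 99.3 ± 82.4 (SD, n = 9) in whole cell samples.

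**Figure D1:**
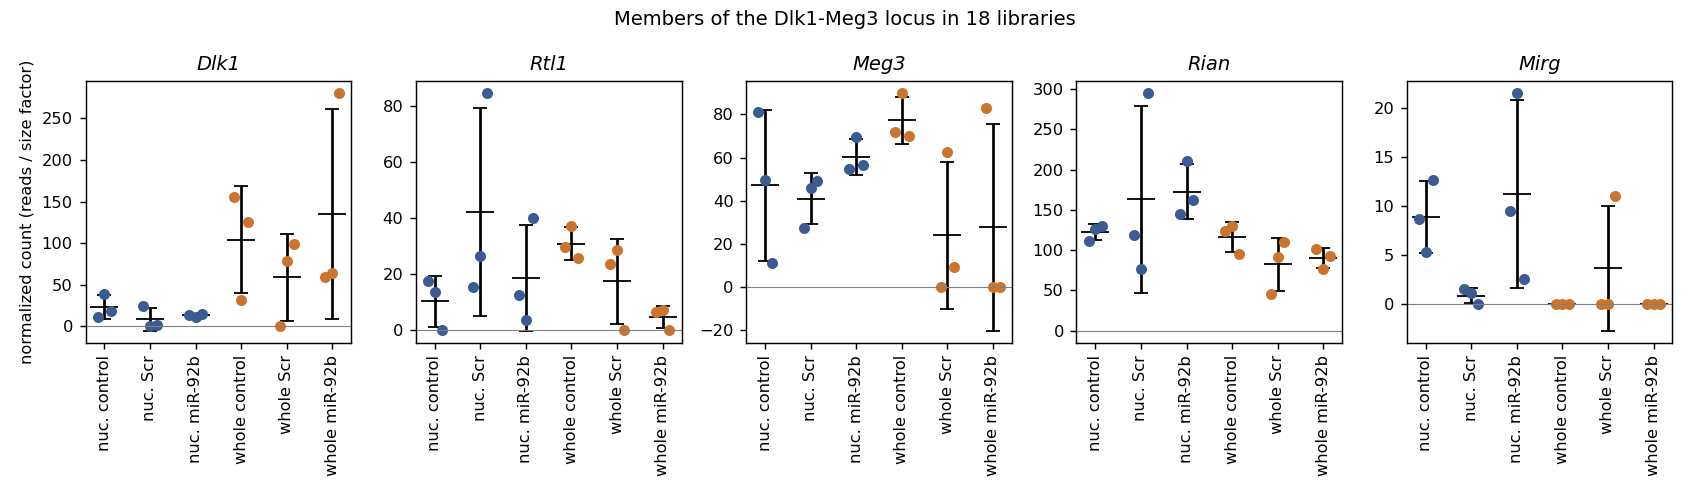
Normalized counts (reads divided by the size factor, vertical axis, a separate scale in each panel) of 5 members in the 6 groups. Points are samples 1, 2 and 3 of a group from left to right, blue for nuclear and orange for whole cell, and black bars are the mean ± SD (n = 3), which can reach below 0. *Dlk1* stayed at or below 39.0 in the 9 nuclear samples and reached 280 in whole cell samples, while *Mirg* had reads in 8 nuclear samples and 1 whole cell sample.

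Differences were tested with limma on log2(normalized count + 1) over the 15579 named loci that averaged at least 10, with Benjamini-Hochberg adjustment over all of them and a threshold of 0.05. On this scale the pseudocount shrinks changes of sparsely read loci, while samples at 0 can enlarge the difference between mean log values well beyond that between mean counts. Over the mean of the 3 treatments, 31.0% of tested loci were called between compartments, 15.8% lower and 15.3% higher in nuclear samples, and the median log2 fold change of all tested loci was 0.14. *Dlk1*, *Meg3*, the main *Rian* locus and *Rtl1* passed the filter. *Mirg*, with a mean of 4.1, and the second *Rian* locus, with a mean of 1.8, did not.

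Of the 4 tested members, 1 was called: *Dlk1* fell in nuclear samples, with a log2 fold change of -2.40 ± 0.84 (SE, adjusted p = 0.0332, limma). edgeR (-2.72, adjusted p = 0.00778) and DESeq2 (-2.75, adjusted p = 0.000458) on recovered reads also called it. The limma call was lost with a pseudocount of 0.5 (adjusted p = 0.0573), with no filter on low values (0.0704), in the FPKM table (0.0618), and when any of 12 libraries was left out (adjusted p between 0.0502 and 0.0808), namely nuclear control 1 or 3, nuclear Scr 2 or 3, nuclear *miR-92b* 1, 2 or 3, whole cell control 1 or 3, whole cell Scr 2 or 3 or whole cell *miR-92b* 3. The log2 fold change stayed between -3.12 and -1.91 over all 30 alternatives.

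*Rtl1*, the other coding member, showed no common direction. Its normalized counts were 17.3, 13.4 and 0 in nuclear control, 15.2, 26.5 and 84.5 with nuclear Scr, and 12.3, 3.70 and 39.9 with nuclear *miR-92b*. In whole cell samples they were 29.4, 37.2 and 25.7 in control, 23.7, 28.4 and 0 with Scr, and 6.3, 7.14 and 0 with *miR-92b*. The whole cell control samples thus lay above the nuclear control samples, while with the other treatments the compartments overlapped. The mean was 23.6 ± 25.7 (SD, n = 9) in nuclear and 17.5 ± 14.1 (SD, n = 9) in whole cell samples, and the log2 fold change was 0.47 ± 0.87 (SE, adjusted p = 0.708, limma), which was negative under quantile normalization (-0.42) and without whole cell Scr 3 (-0.05).

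*Meg3* was found in every nuclear sample but was without a read in 3 whole cell samples. Its normalized counts were 80.9, 49.7 and 11.1 in nuclear control, 27.4, 46.0 and 49.2 with nuclear Scr, and 54.6, 69.7 and 56.6 with nuclear *miR-92b*. In whole cell samples they were 71.7, 89.9 and 70.2 in control, 0, 62.8 and 9.17 with Scr, and 82.8, 0 and 0 with *miR-92b*. The whole cell values thus spanned the nuclear range on both sides. Of the tested loci, 36.1% had at least 1 sample at 0 and 18.9% had 3 or more.

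The mean of *Meg3* was 49.5 ± 20.8 (SD, n = 9) in nuclear and 43.0 ± 39.4 (SD, n = 9) in whole cell samples. The median ran the other way, 49.75 in nuclear and 62.8 in whole cell samples, as did mean FPKM (0.917 and 1.002). The log2 fold change of *Meg3* was positive in the FPKM table (0.86). In the main test it was 1.65 ± 0.86 (SE) and missed the threshold (adjusted p = 0.145, limma). Without whole cell *miR-92b* sample 1, the 1 sample of its group with *Meg3* reads, it was 2.36 (adjusted p = 0.0167). Count models gave a smaller value, 0.41 by edgeR (adjusted p = 0.757) and 0.42 by DESeq2 (adjusted p = 0.730).

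*Rian* was the member with most reads and was found in all 18 samples. Its main locus had normalized counts of 111, 126 and 130 in nuclear control, 119, 76.0 and 295 with nuclear Scr, and 145, 210 and 162 with nuclear *miR-92b*. In whole cell samples they were 123, 130 and 95.1 in control, 45.6, 91.1 and 110 with Scr, and 102, 77.1 and 92.4 with *miR-92b*. The 3 nuclear *miR-92b* samples and nuclear Scr 3 lay above every whole cell sample, and the other nuclear samples lay within or next to the whole cell range.

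The mean of *Rian* was 153 ± 64.9 (SD, n = 9) in nuclear and 96.2 ± 25.1 (SD, n = 9) in whole cell samples, and the log2 fold change was 0.61 ± 0.28 (SE, adjusted p = 0.0984, limma). It passed the threshold by DESeq2 (0.68, adjusted p = 0.0456), under quantile normalization (0.71, adjusted p = 0.0463) and without nuclear Scr 2 (0.76, adjusted p = 0.0323). It missed it by edgeR (0.69, adjusted p = 0.0674).

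*Mirg*, the miRNA host, had 93 reads in nuclear and 42 in whole cell samples. Its normalized counts were 8.66, 5.38 and 12.7 in nuclear control, 1.52, 1.15 and 0 with nuclear Scr, and 9.56, 21.5 and 2.57 with nuclear *miR-92b*. It was at 0 in all whole cell samples except Scr 3, the most deeply sequenced library, which had 42 reads (11). In control and *miR-92b* cells *Mirg* was thus found in each nuclear sample and in no whole cell sample, and in Scr cells this was not so.

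With whole cell samples at 0 set to a floor of 3 reads per library, the mean nuclear *Mirg* count lay 3.16-fold above the mean floor in control. With *miR-92b* it lay 3.79-fold above, but nuclear *miR-92b* sample 3 (2.57) was itself below that mean floor (2.96). In Scr the means ran the other way, 0.891 in nuclear and 3.67 in whole cell samples. Over all 9 against 9 samples the mean log2(normalized count + 1) was 2.03 higher in nuclear samples (exact two-sided permutation test, p = 0.00708, adjusted over 10 comparisons of *Mirg* p = 0.0708). Floors and read numbers cover counting error only, since PCR copies are not independent molecules. In bulk samples, fewer cells with an RNA and less RNA per cell cannot be told apart.

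**Figure D2:**
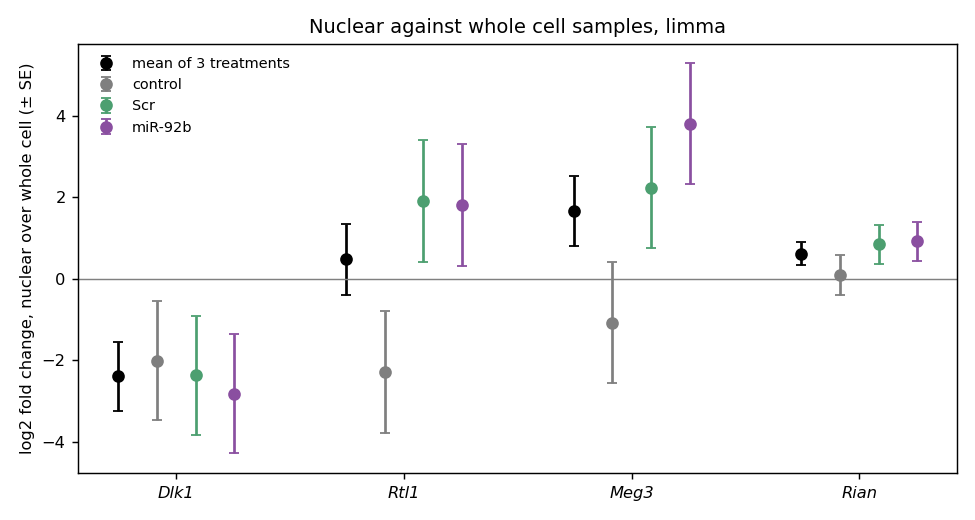
Log2 fold changes of nuclear over whole cell samples (vertical axis, limma, on log2(normalized count + 1)) for the 4 tested members, over the mean of the 3 treatments and within each treatment. Points are estimates and bars their SE. The 4 *Dlk1* values lie between -2.83 and -2.01, while *Meg3* and *Rtl1* are negative in control and positive with Scr and *miR-92b*.

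Within single treatments none of the 4 tested members was called by limma or edgeR, and DESeq2 called *Dlk1* in *miR-92b* samples (-3.29, adjusted p = 0.0367). At an unadjusted p below 0.05, limma gave 0 members in control, 0 in Scr and 1 in *miR-92b* samples. Of all tested loci, 9.85% were called in control, 5.17% in Scr and 13.3% in *miR-92b* samples. The *Dlk1* log2 fold change was -2.01 ± 1.46 (SE) in control, -2.37 ± 1.46 with Scr and -2.83 ± 1.46 with *miR-92b* (adjusted p = 0.459, 0.355 and 0.205, limma). *Meg3* had -1.08 ± 1.48 in control, 2.23 ± 1.48 with Scr and 3.8 ± 1.48 with *miR-92b* (adjusted p = 0.735, 0.397 and 0.0915, limma). The last value was 5.93 (adjusted p = 0.00442) without whole cell *miR-92b* sample 1, 1.15 by edgeR (adjusted p = 0.721), 1.14 by DESeq2 (adjusted p = 0.674), 1.38 in the FPKM table and 1.92 with a pseudocount of 8. *Rian* had 0.09 ± 0.48, 0.84 ± 0.48 and 0.92 ± 0.48 in the same order (adjusted p = 0.945, 0.318 and 0.218, limma).

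Samples of the compartments did not overlap for 2 of 5 members in control (*Rtl1* and *Mirg*; 38.1% of tested loci), for 0 of 5 in Scr (22.3%), for 3 of 5 in *miR-92b* (*Dlk1*, *Rian* and *Mirg*; 36.2%) and for 0 of 5 over all 9 against 9 samples (7.32%). Since *Mirg* is not among the tested loci, these shares describe loci with more reads.

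The noncoding *Meg3* was then compared with the coding *Dlk1* within each sample, so that both loci share a library and its size factor. The log2 ratio of *Meg3* to *Dlk1*, each with 1 added, was 2.71, 0.344 and -0.727 in nuclear control, 0.164, 5.56 and 4.47 with nuclear Scr, and 1.92, 2.47 and 1.81 with nuclear *miR-92b*. In whole cell samples it was -1.10, 1.46 and -0.830 in control, 0, -0.308 and -3.29 with Scr, and 0.472, -6.03 and -8.14 with *miR-92b*. It was above 0 in 8 of 9 nuclear and 2 of 9 whole cell samples, and the compartments overlapped. These counts are not scaled by length, so the sign does not show which RNA was more abundant. In nuclear samples mean FPKM was higher for *Dlk1* (2.54) than for *Meg3* (0.917).

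The mean ratio was 2.08 ± 2.03 (SD, n = 9) in nuclear and -1.97 ± 3.22 (SD, n = 9) in whole cell samples, a difference of 4.05 on the log2 scale (exact two-sided permutation test, p = 0.00234, adjusted over 4 comparisons p = 0.00938). It lay between 3.28 and 4.48 when each sample was left out in turn. In the 8 nuclear and 6 whole cell samples with reads on both loci it was 2.24 (exact permutation test, p = 0.0240, an alternative chosen after seeing the data). Within treatments the difference was 0.931 in control (exact p = 0.5), 4.60 with Scr (exact p = 0.1) and 6.63 with *miR-92b* (exact p = 0.1), and 3 samples against 3 cannot give a p below 0.1. The difference of 4.05 equals the *Meg3* log2 fold change (1.65) minus that of *Dlk1* (-2.40), so it restates those values and is no separate evidence. The other coding member, *Rtl1*, had 0.47, and no ratio with it was tested.

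**Figure D3:**
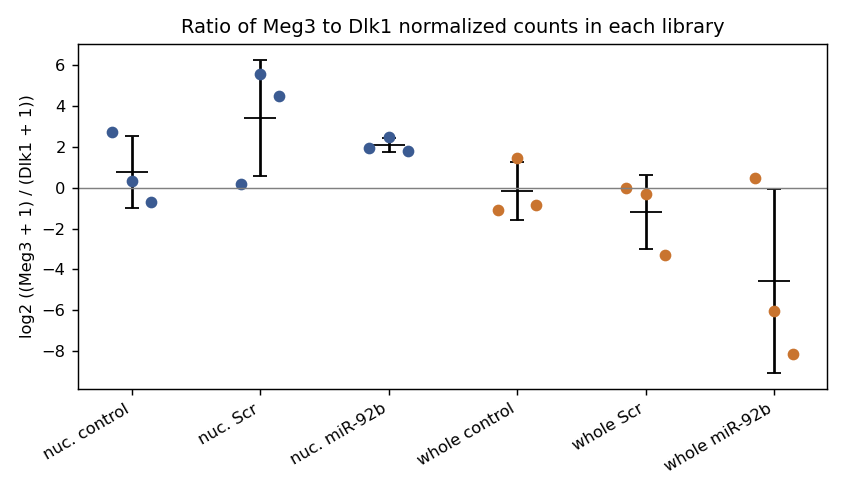
Log2 of the *Meg3* normalized count plus 1 over the *Dlk1* normalized count plus 1 (vertical axis) in each of the 18 samples, by group. Points are samples, blue for nuclear and orange for whole cell, and black bars are the mean ± SD (n = 3). Values were above 0 in 8 of 9 nuclear samples and in 2 of 9 whole cell samples. Counts are not scaled by length, so the sign does not show which RNA was more abundant.

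*Rian* against *Dlk1*, given as a description, had the same order. Its log2 ratio ranged from 1.67 to 7.03 in nuclear samples and from -1.59 to 5.54 in whole cell samples, where the highest value came from Scr 1, with no *Dlk1* read. The next highest whole cell value was 1.99.

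The second *Rian* locus was left out of the following shares and sums. The share of the 3 noncoding RNAs among the reads on the 5 members was 77.6% to 95.1% in nuclear samples (median 82.3%) and 24.8% to 76.1% in whole cell samples (median 56.8%). These ranges did not overlap, but the nearest samples, nuclear control 2 (77.6%) and whole cell control 2 (76.1%), were close. *Dlk1* took 0% to 16.7% of these reads in nuclear samples (median 5.58%) and 0% to 75.2% in whole cell samples (median 39.7%). The summed normalized count of the members was 248 ± 85.5 (SD, n = 9) in nuclear and 257 ± 101 (SD, n = 9) in whole cell samples, and the ranges, 149.6 to 430 and 69.3 to 380, overlapped. With the second *Rian* locus the whole cell sum was 261 ± 106 (SD, n = 9) and reached 405. Longer RNAs give more reads, so shares of reads are not shares of molecules.

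**Figure D4:**
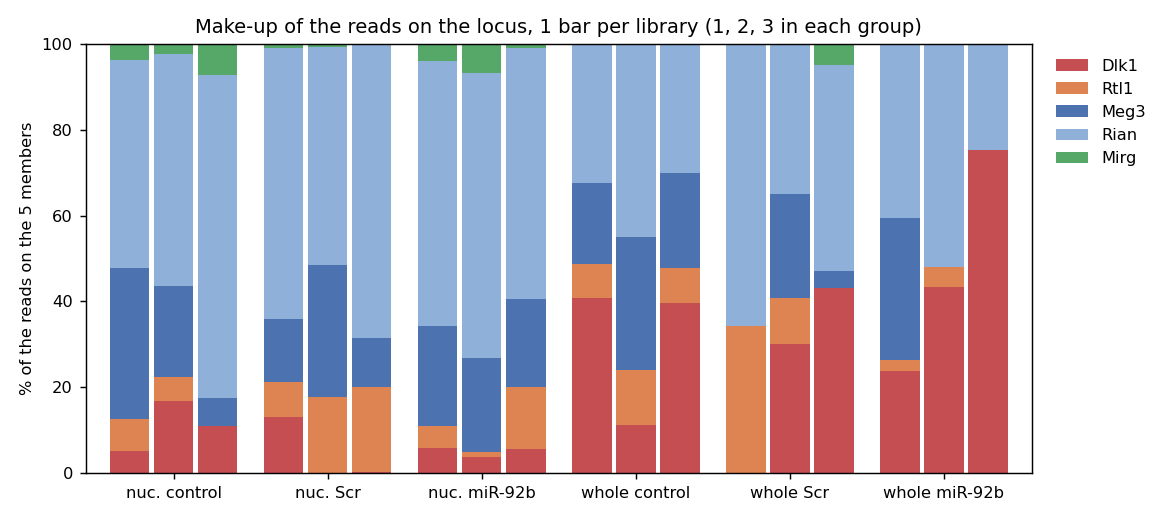
Share of the reads on the 5 members (vertical axis, %, the second *Rian* locus left out) taken by each member, with 1 bar per sample in the order 1, 2, 3 within a group. Noncoding RNAs (blue and green) took at least 77.6% in nuclear samples and at most 76.1% in whole cell samples, and *Dlk1* (red) reached 75.2% in whole cell *miR-92b* sample 3.

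Levels of different members can be compared only per length, and for this the deposited FPKM values were used (fragments scaled by transcript length and library depth). In nuclear samples mean FPKM was highest for *Rian* (11.2 ± 6.42), followed by *Dlk1* (2.54 ± 3.19), *Meg3* (0.917 ± 0.710), *Mirg* (0.837 ± 1.005) and *Rtl1* (0.316 ± 0.354; SD, n = 9). In whole cell samples *Dlk1* (9.90 ± 5.73) came before *Rian* (7.84 ± 5.48), *Meg3* (1.002 ± 1.61), *Rtl1* (0.246 ± 0.199) and *Mirg* (0.0861 ± 0.258). Among neighbours in these orders, only *Rian* and *Dlk1* in nuclear samples and *Rian* and *Meg3* in whole cell samples differed by more than the larger of their SDs. Both orders use the main *Rian* locus only. The second *Rian* locus reached an FPKM of 103.5 in whole cell *miR-92b* sample 3, its 1 sample with reads. Its mean over the whole cell samples (11.5 ± 34.5, SD, n = 9) would place it before *Dlk1*, on that 1 sample alone. The FPKM of a locus depends on the transcripts the reads were assigned to: the normalized count per FPKM of *Meg3* ranged from 4.98 to 133 between samples, that of *Dlk1* from 2.18 to 19.3 and that of *Rtl1*, with 1 annotated transcript, from 68.8 to 82.3.

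RNA collected with *miR-92b* was compared with RNA collected with Scr to ask which transcripts the miRNA holds. No member was called in either compartment. In nuclear samples limma called 0 of 15579 loci (0%), with 687 at an unadjusted p below 0.05, 0 by edgeR and 1 by DESeq2, and in whole cell samples it called 1 (0.00642%), with 1515 at an unadjusted p below 0.05, 1 by edgeR and 176 by DESeq2. None of the 4 tested members reached an unadjusted p below 0.05 or was called by edgeR or DESeq2.

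*Rian*, with a seed match in 1 of its 20 annotated transcripts, had a log2 fold change of 0.29 ± 0.48 (SE) in nuclear and 0.22 ± 0.48 in whole cell samples (adjusted p = 1 and 0.922, limma). This value is that of a locus joining 6 symbols, so it cannot show whether Rian-209 was among the RNA measured. *Meg3* had 0.59 ± 1.48 in nuclear samples, where its *miR-92b* samples (54.6 to 69.7) lay above its Scr samples (27.4 to 49.2), and -0.98 ± 1.48 in whole cell samples (adjusted p = 1 and 0.862, limma). *Dlk1* had 1.92 ± 1.46 and 2.38 ± 1.46, with adjusted p = 1 and 0.614 (limma). The whole cell value was 0.22 without Scr 1, the Scr sample at 0, and 1.13 by edgeR, and the other Scr samples (78.0 and 98.7) lay above 2 of the 3 *miR-92b* samples. *Rtl1* had -1.30 ± 1.5 and -1.20 ± 1.5 (adjusted p = 1 and 0.828, limma).

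*Mirg* had 73 reads in the nuclear *miR-92b* samples, 64 of them in sample 2, the deepest nuclear library, and 2 in the nuclear Scr samples, so that its normalized counts did not overlap (exact two-sided permutation test, p = 0.1, the smallest that 3 against 3 samples allow). The nearest samples had 2 reads (*miR-92b* 3) and 1 read (Scr 1). Against nuclear control (8.9), the mean log2 difference was 0.01 for nuclear *miR-92b* (11.2) and -2.43 for nuclear Scr (0.891). Groups did not overlap for 2 of 5 members in nuclear samples (*Meg3* and *Mirg*; 10.1% of tested loci) and for 0 of 5 in whole cell samples (8.92%). The difference between the effects of *miR-92b* against Scr in the 2 compartments was called for 0 of 4 tested members (0.00642% of tested loci).

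Both kinds of pulldown were also set against the same untransfected samples, which they share as controls. No tested member was called by limma, edgeR or DESeq2 in these comparisons. Of all tested loci, limma called 0% for nuclear *miR-92b*, 0.00642% for whole cell *miR-92b*, 0% for nuclear Scr and 0% for whole cell Scr. At an unadjusted p below 0.05 limma gave 50, 731, 916 and 793 loci in that order, edgeR called 0, 1, 0 and 0, and DESeq2 called 0, 21, 0 and 37. *Meg3* in whole cell samples had a log2 fold change of -4.15 ± 1.48 (SE) with *miR-92b* (unadjusted p = 0.00997, adjusted p = 1, limma) and -3.17 ± 1.48 with Scr (unadjusted p = 0.0430, adjusted p = 0.957, limma). The values were smaller by edgeR (-1.47 and -1.70), by DESeq2 (-1.48 and -1.69) and in the FPKM table (-2.15 and -1.15). In nuclear samples the values were 0.72 ± 1.48 and 0.14 ± 1.48. The difference between compartments for *miR-92b* against control was 4.88 ± 2.09 for *Meg3* (unadjusted p = 0.0288, adjusted p = 1, limma), and limma called 0% of loci for this difference (290 at an unadjusted p below 0.05, 0 by edgeR, 3 by DESeq2) and for that of Scr against control (823, 0 and 8).

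*Rtl1* in whole cell samples was -3.01 ± 1.5 (SE) with *miR-92b* against control and its samples did not overlap, at 0 to 7.14 against 25.7 to 37.2 (unadjusted p = 0.0563, adjusted p = 1, limma). *Dlk1* in whole cell samples had 0.26 ± 1.46 with *miR-92b* and -2.12 ± 1.46 with Scr, and in nuclear samples -0.57 ± 1.46 and -2.48 ± 1.46. *Rian* ranged from -0.57 to 0.48 over the 4 comparisons. Groups did not overlap for 1 of 5 members in each of the 4 comparisons: *Rian* for nuclear *miR-92b* (7.48% of tested loci), *Rtl1* for whole cell *miR-92b* (8.01%), *Mirg* for nuclear Scr (8.66%) and *Meg3* for whole cell Scr (13.5%).

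The region between *Dlk1* and *Mirg* holds 103 loci in the files. Besides the members, 74 carry a symbol, and of these 70 were at 0 in all samples. The 4 with reads were *Gm26945*, *Gm37899*, *B830012L14Rik* and *Gm26906*, of which *Gm37899*, with a mean normalized count of 17.3, passed the filter. The other 23 loci have no symbol and all had reads in at least 1 sample. Their summed normalized count was 17.3 ± 28.2 (SD, n = 9) in nuclear and 27.9 ± 21.0 (SD, n = 9) in whole cell samples, so the compartments overlapped. They took 0% to 25.1% of the reads of the region in nuclear samples and 0% to 21.1% in whole cell samples.

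Genes around and beyond the locus give a setting for these values, and they are described by counts of loci between nuclear and whole cell samples over the mean of the 3 treatments. Of all tested loci, 15.3% rose and 15.8% fell in nuclear samples. Of 11 flanking genes of chromosome 12, 9 were tested. None rose and 3 fell: *Wars*, a tRNA synthetase (-0.82 ± 0.15 (SE), adjusted p = 0.000157, limma), *Ppp2r5c*, a phosphatase subunit (-1.83 ± 0.21, adjusted p = 4.19e-07), and *Evl*, an actin regulator (-1.71 ± 0.24, adjusted p = 9.56e-06). Their median log2 fold change was -0.39, beside 0.14 for all tested loci. *Dio3*, the imprinted deiodinase gene beyond *Mirg*, and *Dio3os* had no reads under their symbols.

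Of 46 imprinted genes of other loci, 29 were in 40 tested loci, of which 14 rose and 5 fell in nuclear samples. Their median log2 fold change was 0.45, beside 0.14 for all tested loci. Those that rose included *Kcnq1ot1*, the long noncoding RNA of the Kcnq1 domain (0.98 ± 0.14 (SE), adjusted p = 1.22e-05, limma), *Peg3*, a zinc finger gene (0.56 ± 0.11, adjusted p = 0.000324), and *Nespas*, the antisense RNA of the Gnas locus (0.78 ± 0.13, adjusted p = 4.37e-05). Those that fell included *Peg10*, like *Rtl1* derived from a retrotransposon (-1.75 ± 0.13, adjusted p = 9.46e-10), *Copg2*, a coat protein gene (-0.63 ± 0.14, adjusted p = 0.00127), and *Inpp5f*, a phosphatase gene (-0.37 ± 0.12, adjusted p = 0.0217). *Igf2r*, *Nespas* and *Gnas* are each listed more than once. Their loci are counted separately, and several *Igf2r* loci are among those that rose, so these genes weigh more in the counts and the median.

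Since *Dlk1* is related to the Notch ligands, 26 genes of the Notch pathway were also described. Of these, 17 were tested, 3 rose and 6 fell in nuclear samples, with a median log2 fold change of -0.36, beside 0.14 for all tested loci. The nuclear factors *Maml3* (0.97 ± 0.15 (SE), adjusted p = 2.08e-05, limma) and *Rbpj* (0.56 ± 0.11, adjusted p = 0.000330) and the receptor *Notch2* (0.57 ± 0.20, adjusted p = 0.0308) rose. The ubiquitin ligase *Mib1* (-0.80 ± 0.11, adjusted p = 4.14e-06), the protease *Adam10* (-1.01 ± 0.14, adjusted p = 7.23e-06) and the ligand *Jag2* (-0.59 ± 0.19, adjusted p = 0.0189) fell. No tested locus of these 3 lists was called for *miR-92b* against Scr in either compartment by limma.

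**Figure D5:**
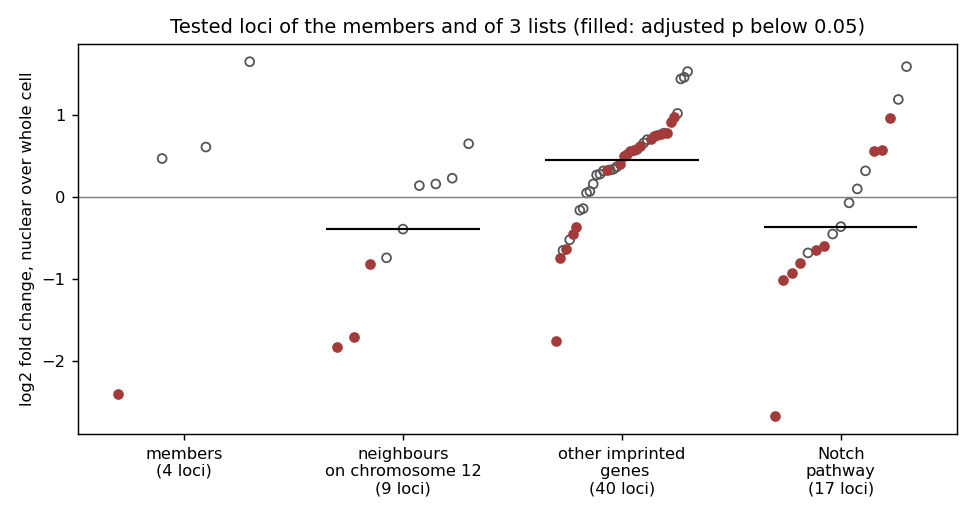
Log2 fold changes of nuclear over whole cell samples (vertical axis, limma, mean of the 3 treatments) for the tested loci of the Dlk1-Meg3 locus, its flanking genes, other imprinted genes and the Notch pathway. Each point is a locus, filled red where adjusted p was below 0.05, and black lines are medians (-0.39, 0.45 and -0.36 from left to right). *Dlk1*, at -2.40, is the one filled point among the members.

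Across the 18 samples, the loci whose log2(normalized count + 1) followed *Dlk1* most closely were *Garem2* (Pearson's r = 0.919), *Dusp7* (0.909), the locus of *Apopt1* and *Gm15995* (0.899), that of *Urm1* and *Mir219b* (0.899) and *Nkx2-5* (0.894). For *Rian* they were *Cdyl* (0.843), *Gm15916* (0.839), *1500002C15Rik* (0.838), *Gm26535* (0.835) and the locus of *Akap10* and *A530017D24Rik* (0.827). These are the highest of 15579 values each, and the points share compartment, treatment and depth within a library. Among the members themselves r was 0.549 for *Meg3* and *Rian*, 0.472 for *Meg3* and *Rtl1*, 0.126 for *Rian* and *Rtl1*, -0.411 for *Dlk1* and *Rtl1*, -0.0249 for *Dlk1* and *Meg3* and -0.00943 for *Dlk1* and *Rian*.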

How the data were processed

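Poly(A)-selected RNA of pulldown and control lysates was measured in 18 samples. Per the labels and methods, the authors converted runs with bcl2fastq 2.17, trimmed reads with Trimmomatic 0.30, aligned them to GRCm38 (mm10) with TopHat2 and assembled loci with Cufflinks. For the last tools the version, and for counting the use of strand, is not given in the sources used here. Deposited values are a signal, reads per locus over 1 size factor per sample, and FPKM. Deposited comparison tables hold the authors' fold changes and p-values and were not used.

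Of 635205 values above 0, 99.953% were whole reads within 0.02, so reads were recovered for edgeR 4.0.16 and DESeq2 1.42.0. The main test was limma 3.58.1 (trended prior variance, two-sided), fitted to log2(normalized count + 1) of the 6 groups together over 15579 loci with a symbol and a mean of at least 10. *Mirg* and the *Meg3* to *Dlk1* ratio were tested by exact permutation (SciPy 1.17.1). No sample was dropped or imputed. The fits were tested on simulated data.

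Alternatives were pseudocounts, filters, the FPKM table, rescaling, quantile normalization, compared groups alone, sample weights, a replicate block, edgeR, DESeq2 and leaving out each sample. From each list, up to 3 called genes per direction were named, taking those of highest mean. The members, lists and tests were chosen with earlier results of these data known. Single values of some marker genes are not reported here.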

Additional observations from a re-analysis of the deposited data

Results flagged for a closer look

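The second *Rian* locus, which has the same listed coordinates as the main one, had 51 reads (a normalized count of 32.5) in whole cell *miR-92b* sample 3 and 0 reads in the other 17 samples, controls included. It is named because it is a signal outside the tested loci that the control samples lack. The same sample had the highest *Dlk1* value (280) and no *Meg3*, *Mirg* or *Rtl1* read, and the lowest number of detected loci with a symbol, 14300 of a range that reached 21421.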

How the results depend on the processing

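Of 333 alternatives for the 16 values that answer a comparison, 301 kept direction and side of the threshold, 15 lost the call, 4 gained one and 13 turned the direction. Of 624 for the other 45 values, 591 kept both, 3 gained a call, 23 turned the direction and 7 moved a count by over 1.5 times. The cause was not tested. In this tally the main values of *Mirg* and of the *Meg3* to *Dlk1* ratio were scored on the unadjusted exact permutation p. *Mirg* between compartments (exact p = 0.00708) thus counts as called and as kept in all 23 alternatives, although its adjusted p was 0.0708. The *Dlk1* difference between compartments lost its call with a pseudocount of 0.5 (-2.47), no filter (-2.40) and FPKM (-2.33), and lay between -3.12 and -2.01 with each sample left out. That of *Rian* gained a call under quantile normalization (0.71) and DESeq2 (0.68; 0.43 to 0.76 with samples left out), that of *Meg3* in 1 omission (1.13 to 2.36; within *miR-92b* up to 5.93), and that of *Dlk1* in *miR-92b* samples under quantile normalization (-4.39) and DESeq2 (-3.29). *Rtl1* turned under quantile normalization (-0.42; -0.05 to 0.92 with samples left out).

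With FPKM the direction turned for *Meg3* between compartments in control (0.19), for nuclear *miR-92b* against Scr (-0.64) and control (-0.96) and nuclear Scr against control (-0.32), and for *Rian* between compartments in control (-0.66) and whole cell *miR-92b* against Scr (-0.55). Sample weights turned whole cell *Dlk1*, *miR-92b* against control (-0.31), whole cell *Meg3*, *miR-92b* against Scr (0.26; edgeR 0.23, DESeq2 0.21), and nuclear *Meg3*, Scr against control (-0.65; edgeR -0.26, DESeq2 -0.19). Quantile normalization turned nuclear *Dlk1*, *miR-92b* against Scr (-0.97), and a pseudocount of 0.5 nuclear *Mirg*, *miR-92b* against control (-0.02).

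Leaving out 1 sample turned the following, given as ranges: for *miR-92b* against Scr, whole cell *Meg3* (-3.11 to 0.46), nuclear *Rian* (-0.14 to 0.83) and whole cell *Rian* (-0.15 to 0.47); for *miR-92b* against control, whole cell *Dlk1* (-0.47 to 0.68), nuclear *Meg3* (-0.08 to 1.30), nuclear *Rtl1* (-0.25 to 1.86) and nuclear *Mirg* (-0.62 to 0.71); for Scr against control, whole cell *Dlk1* (-3.29 to 0.03), nuclear *Meg3* (-0.67 to 0.72) and nuclear *Rian* (-0.36 to 0.61); between compartments, *Rian* in control (-0.05 to 0.17) and *Mirg* in Scr (-0.98 to 0.81).

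DESeq2 called 1288 loci between compartments in Scr, against 805 by limma, for *miR-92b* against Scr 1 (nuclear) and 176 (whole cell), for whole cell *miR-92b* against control 21 and for whole cell Scr against control 37. Deviations from group means had r of -0.0438 to 0.109 over 45 pairs of samples with the same number. Over 90 pairs with different numbers r was -0.109 to 0.0665. Numbers were not taken as pairs, though low r cannot show that samples are unpaired, since counting noise can hide a shared part. With a replicate block *Dlk1* was -2.40 (adjusted p = 0.0377, limma), no member's call changed, and 2 loci in place of 1 were called for whole cell *miR-92b* against Scr and against control. The mean over treatments uses all 6 groups, so compared groups alone could not be run for it. Depth limits *Mirg*, with 135 reads in all, and the second *Rian* locus, with 51.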
